A study of Mus musculus with 2 samples.

Results

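Antigen-presenting LTi-like ILC3s are group 3 innate lymphoid cells (ILC3s) that carry RNA for a homing receptor of lymphoid tissue inducer (LTi) cells together with RNA of the MHC class II pathway. They were chosen from barcodes with 500 or more detected genes and under 10% of unique molecular identifiers (UMIs, counted RNA molecules) from mitochondrial genes. A member had 1 or more UMIs of Ccr6 or Cxcr5, no Cd3e UMI, under 2 Gata3 UMIs, no Ncr1 UMI, Il22 under 5% of its UMIs, and 2 or more UMIs of Cd74. This rule found 190 members among 6466 kept barcodes, 59 in the library labelled WT and 131 in the library labelled cKO. The 319 cells that met the same criteria with under 2 Cd74 UMIs, 83 WT and 236 cKO, are called Cd74-low LTi-like cells and served as the comparison. The rule split both sets by counts of the same cells, so every contrast between them is a description and supports nothing by itself.

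The cells were sorted from the small intestine of female C57BL/6 mice and profiled with the 10x Genomics Chromium 3′ kit, version 2. The WT library came from Batf fl/fl mice, and the cKO library from Batf fl/fl Plzf cre+ mice, so both genotypes carried floxed Batf and the Cre, under control of Plzf (Zbtb16), was the labelled difference. The labels do not state age, sort gate, how many mice were pooled, or which Batf exons are lost. There was 1 library per genotype, so no difference between genotypes has a replicate check, no p-value is given, and genotype cannot be told apart from mouse, sort and library.

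LTi cells build lymph nodes and Peyer's patches in the embryo and organise isolated lymphoid follicles in the adult gut. CCR6 and CXCR5 are the chemokine receptors that bring them there, and CCR6+ ILC3s of the adult intestine are known to carry MHC class II and to present antigen to CD4+ T cells. In the class II pathway, CD74, the invariant chain, holds the peptide groove of newly made class II molecules shut, cathepsin S trims it away, and H2-DM exchanges the remaining fragment for antigen peptides while H2-O restrains H2-DM. BATF is an AP-1 family factor that pairs with JUN proteins. Plzf is transient in precursors of many innate lymphoid cells, and fate mapping has placed most LTi cells outside that history, so the label cKO alone does not say whether Batf was deleted in these cells.

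Class II genes share a short promoter module, the S, X and Y boxes, and the Y box is a CCAAT element bound by NF-Y. The 120 bases before the start of transcription are shown for 4 class II genes whose RNA set members apart or differed between libraries, because this is where that module lies. They are RefSeq sequences of GRCm38.p6, written 5′ to 3′ on the gene's strand, with ATTGG or its complement CCAAT in capitals. The windows are chr17:34287824-34287943 (minus strand) for H2-Aa, chr17:34305747-34305866 (plus) for H2-Eb1, chr17:34153071-34153190 (plus) for H2-DMb1 and chr17:34092259-34092378 (plus) for H2-Oa.
H2-Aa: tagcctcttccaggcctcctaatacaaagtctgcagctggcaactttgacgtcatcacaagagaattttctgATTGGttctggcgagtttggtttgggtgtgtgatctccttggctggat
H2-Eb1: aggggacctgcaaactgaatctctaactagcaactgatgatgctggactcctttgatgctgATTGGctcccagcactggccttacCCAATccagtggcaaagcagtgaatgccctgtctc
H2-DMb1: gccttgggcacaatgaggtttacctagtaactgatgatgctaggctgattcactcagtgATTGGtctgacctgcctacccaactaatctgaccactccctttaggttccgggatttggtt
H2-Oa: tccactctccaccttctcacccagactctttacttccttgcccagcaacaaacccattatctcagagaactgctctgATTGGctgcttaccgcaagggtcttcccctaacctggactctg
The first capital base lies at -48 from the start of H2-Aa, at -59 and -35 in H2-Eb1, at -61 in H2-DMb1 and at -43 in H2-Oa. Of the 10 class II genes (the 9 H2 genes and Cd74), 8 had an entry in the table, with 9 windows, and 7 of those windows (77.8%) held the pentamer on either strand. Both windows of H2-DMa, a gene whose RNA also set members apart in cKO, lacked the pentamer and are not printed. The pentamer was in 6994 of all 32851 promoter windows of that length (21.3%). A match is a description of letters and not a site.

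Batf, the targeted gene, was found in both libraries. WT members held 12 Batf UMIs in 9 of 59 cells, 57.9 counts per 1000000 UMIs of the group (CPM; 95% counting interval 29.9 to 101). In cKO members there were 44 UMIs in 36 of 131 cells, 107 CPM (77.9 to 144). The log2 ratio of cKO over WT was 0.89 (-0.056 to 1.95), and that of the Cd74-low cells was 0.74 (0.015 to 1.54), so Batf RNA was not lower in the library labelled cKO. A 3′ tag outside the deleted part would stay in a knockout and then checks nothing, and whether this tag lies there was not tested. Zbtb16 (PLZF) was at 14.5 CPM in WT and 14.6 CPM in cKO members, from 3 and 6 UMIs.

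The members held 207409 UMIs in WT and 410599 in cKO, a median of 3690 and 2954 per cell. Cd74-low cells held 243681 and 666687 UMIs, a median of 3178 and 2647. Of 14 barcodes found in both libraries, 1 belonged to a member, and none was a member in both. Scrublet called 1 WT and 2 cKO members as doublets, and these were kept. The label was checked on 8 ILC3 markers that the rule does not use (among them Il23r, Kit, Il7r, Il1r1, Ahr, Tmem176a and Tmem176b): 3 or more were detected in 59 of 59 WT and 129 of 131 cKO members, and their summed level was 7531 and 7168 CPM. All intervals here cover counting error only, take every UMI as independent, and are too narrow for a gene whose UMIs lie mostly in a few cells.

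Members made up 41.5% of LTi-like cells in WT (59 of 142, exact Clopper-Pearson 95% interval 33.3 to 50.1%) and 35.7% in cKO (131 of 367, 30.8 to 40.8%). The intervals overlap. Among all kept barcodes the shares were 8.02% (6.16 to 10.2%) and 2.29% (1.91 to 2.71%), since LTi-like cells as a whole were 19.3% (16.5 to 22.3%) of the WT and 6.40% (5.78 to 7.07%) of the cKO library. The share of kept barcodes depends on every other cell in the sort, whose gate the labels do not state. When the rule was applied after each cell was thinned to 1200 UMIs, an alternative chosen after the data were seen, members were 27.7% of LTi-like cells in WT (23 of 83) and 27.5% in cKO (70 of 255). With Ccr6 alone as the receptor the order of the libraries turned, to 44.1% in WT (49 of 111, 34.7 to 53.9%) and 46.4% in cKO (111 of 239, 40.0 to 53.0%), and these intervals overlap too.

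Transcripts of the class II molecule itself set members apart in both libraries. H2-Aa and H2-Ab1 encode the chains of I-A, the class II molecule of C57BL/6 mice, and H2-Eb1 the beta chain of I-E. H2-Aa (chromosome 17, 34282744 to 34287823, - strand, GRCm38) was at 1610.3 CPM (1442 to 1793) in WT members and 61.6 CPM (34.5 to 102) in WT Cd74-low cells. In cKO it was at 1519.7 CPM (1403 to 1644) and 54 CPM (37.8 to 74.8). H2-Ab1 was at 771 and 49.2 CPM in WT, and at 524 and 49.5 CPM in cKO. RNA of both chains of I-A was thus found in the summed members of each library, though not in every member. H2-Eb1 was at 1186 and 36.9 CPM in WT, and at 981 and 19.5 CPM in cKO. Summed over the 9 H2 class II genes, members stood 4.10 log2 units above Cd74-low cells in WT (3.69 to 4.53) and 4.20 in cKO (3.93 to 4.48).

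The accessory genes of class II loading were sparse. H2-DMa, the alpha chain of the peptide exchanger H2-DM, was at 33.7 CPM in WT members (7 UMIs) and 70.6 CPM in cKO members (29 UMIs), against 12.3 and 9.0 CPM in Cd74-low cells. H2-DMb1, a beta chain of H2-DM, had 16 UMIs in 12 cKO members and none in the 236 cKO Cd74-low cells. With the 0 set to a floor of 3 UMIs over the group it was 8.66-fold higher, and the lower interval bound of its log2 ratio was 2.65. WT members had 1 H2-DMb1 UMI. H2-DMb2, the other beta chain, had 3 UMIs in WT and 9 in cKO members, and of the latter 3 were left without the 5 cKO members that carried 3 or more markers of B cells or ILC2s. H2-Oa, which encodes the alpha chain of H2-O, was at 91.6 and 114 CPM in members and 53.3 and 45 CPM in Cd74-low cells. H2-Ob and H2-Eb2 had at most 2 UMIs in any of the 4 groups. Of the proteases, Ctss (cathepsin S) was at 304 CPM in WT members and 201 in WT Cd74-low cells, and at 258 and 208 in cKO. Ctsb (cathepsin B) was at 125 and 217 CPM in WT (log2 ratio -0.79 (-1.53 to -0.092)), and at 183 and 250.5 CPM in cKO (-0.46 (-0.87 to -0.054)). Ctsl (cathepsin L) was at 125 and 144 CPM in WT (-0.20 (-0.99 to 0.58)), and at 197 and 123 CPM in cKO (0.68 (0.22 to 1.14)). None of these 3 intervals lay wholly beyond 1.5-fold in either library.

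Genes that switch class II on or signal alongside it were partly within the depth of these data, with 8 of 10 class II transcription genes and 7 of 17 costimulation and adhesion ligands at 20 CPM or more in either library. Ciita, the class II transactivator, had 0 UMIs in WT and 1 in cKO members, so its level was not measurable here. Rfxank, a subunit of the X box factor RFX, had 11 UMIs in WT and 11 in cKO members (53 and 26.8 CPM). A gene was counted as higher or lower when it had 20 CPM or more in 1 or both groups and the 95% interval of its ratio lay wholly beyond 1.5-fold, a size rule that is no test. None of the 8 class II transcription genes was past it in either library, and of the 7 ligands Cd40 was higher in both, where 0.578% of all genes were higher in WT and 0.973% in cKO members. Of the costimulatory ligands, Cd86 had no UMI in any of the 4 groups, and Cd80 had 3 UMIs, all in cKO members. By a floor of 3 counts, 0 Cd86 UMIs in 59 and 131 cells allow a share of cells with a UMI of up to 5.08% and 2.29%. Cd40, the receptor through which helper T cells license antigen-presenting cells, was at 33.7 CPM (7 UMIs) in WT and 31.7 CPM (13 UMIs) in cKO members, against 0 and 4 UMIs in Cd74-low cells. Without the highest cell of each group, an alternative chosen after the data were seen, Cd40 was not past the size rule in either library. With Ccr6 alone as the receptor it was not past it in either library as well, and in WT the same held with a Cd74 threshold of 3, with a stricter cell filter and with Cd74 of 0 as the comparison.

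Class II RNA varied widely among the members. Cd74 ranged from 2 to 123 UMIs per cell in WT (median 8) and from 2 to 96 in cKO (median 8), and the 10 cells with the most held 53.0% and 34.1% of all Cd74 UMIs of the members. In cells with 25 or more Cd74 UMIs, 16 WT and 23 cKO, H2-Aa was at 4097 and 4309 CPM. In cells with 10 to 24 it was at 1315 and 1508 CPM, and in cells with 5 to 9 at 879 and 381 CPM. In cells with 3 to 4 it was at 348 and 469 CPM, so in cKO the order did not hold at each step. A level pooled over a bin does not tell a gradient from a mix of cells with and without the RNA. All 39 cells of the top range had a UMI of H2-Aa, H2-Ab1 or H2-Eb1. Over all members, 27 of 59 WT cells (45.8%) and 46 of 131 cKO cells (35.1%) had all of these 3 genes, and 10 WT and 28 cKO cells had none. Members without any of the 3 held a median of 3 (WT) and 4 (cKO) Cd74 UMIs, and 6 WT and 21 cKO members had no UMI of any of the 9 H2 class II genes.

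The threshold fell where class II RNA was low on both sides. Just inside it, cells with 2 Cd74 UMIs (8 WT and 20 cKO) had H2-Aa at 376 and 242 CPM, and 4 WT and 10 cKO cells among them had a UMI of any of the 3 genes. Just outside, cells with 1 Cd74 UMI (8 WT and 28 cKO) had H2-Aa at 96 and 166 CPM, and 6 WT and 13 cKO cells among them had such a UMI. Near the Il22 limit, 0 WT and 4 cKO members had Il22 at 4 to 5% of their UMIs, and 1 WT and 3 cKO cells were left out with 5 to 6%. The limit removed 1 WT and 17 cKO cells in all.

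**Figure D1:**
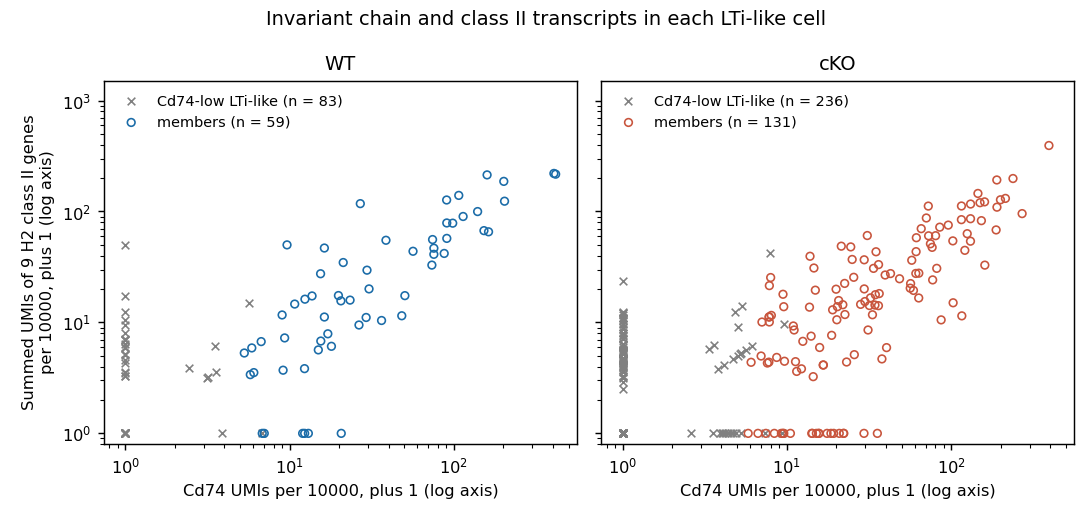
Each point is 1 LTi-like cell, with Cd74 UMIs per 10000 on the x axis and summed UMIs of 9 H2 class II genes per 10000 on the y axis, both plus 1 and on log axes, for the WT library (left) and the cKO library (right). Members (circles, with crosses for Cd74-low cells) spread from the lowest to the highest class II level, and 6 WT and 21 cKO members lie at 0 on the y axis.

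**Figure D2:**
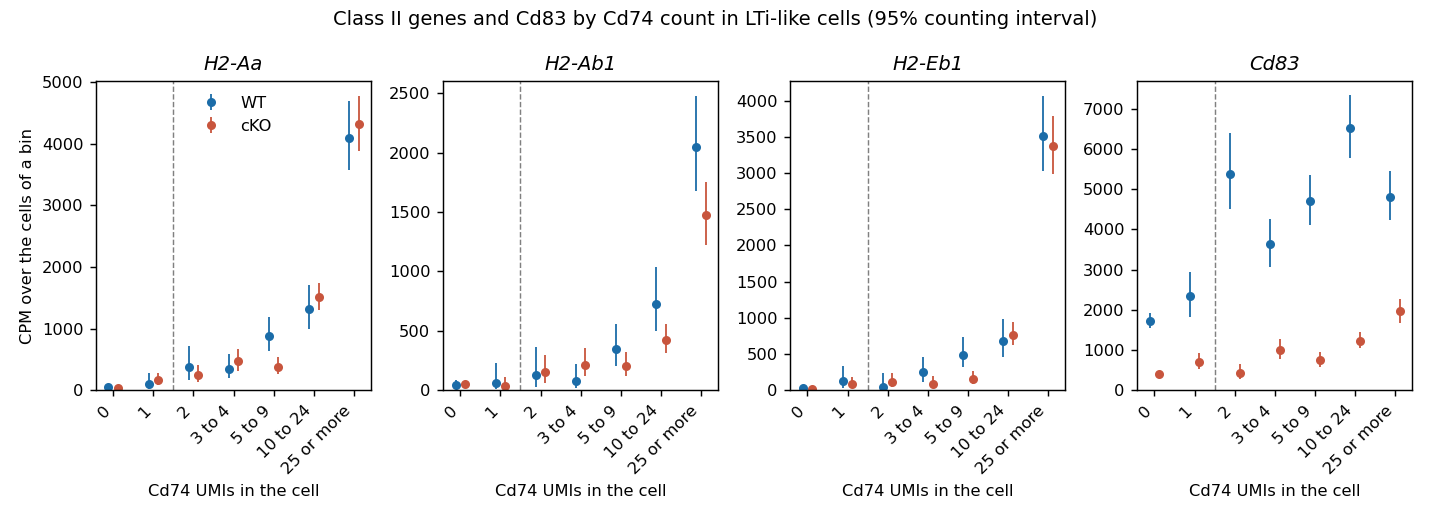
H2-Aa, H2-Ab1, H2-Eb1 and Cd83 in CPM over all LTi-like cells of a bin (y axis) by the Cd74 UMIs of the cell (x axis), with 95% counting intervals; the dashed line marks the rule's threshold. The H2 genes are highest in cells with 25 or more Cd74 UMIs in both libraries, while Cd83 is higher in the WT library in every bin.

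The share of cells with an H2-Aa UMI was set beside that of cells that should lack the gene. After thinning to 1200 UMIs, 56.4% of WT and 54.3% of cKO members had an H2-Aa UMI (72.9% and 67.9% without thinning). Thinning left out 4 WT and 4 cKO members with fewer UMIs. In Cd74-low cells the thinned shares were 4.41% and 5.41%. In Cd3e-negative cells with an Ncr1 UMI, which are not LTi-like, they were 1.02% and 1.45%, at unthinned median depths of 4002 and 3867 UMIs. In cKO cells with 2 or more Cd3e UMIs the share was 1.55%.

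Most members were found through Ccr6. In WT, 29 members had Ccr6 only, 10 had Cxcr5 only and 20 had both. In cKO the numbers were 87, 20 and 24. Among Cd74-low cells they were 42, 21 and 20 in WT, and 94, 108 and 34 in cKO. The Cxcr5 level of members was 260.4 CPM in WT and 139 CPM in cKO, and Ccr6 was at 511 and 494 CPM. In cKO, Ccr6 stood above its level in Cd74-low cells (log2 ratio 0.64 (0.36 to 0.93)) and Cxcr5 below (-0.89 (-1.34 to -0.45)). Neither interval lay wholly beyond 1.5-fold. Cd74 was at 8691 CPM (7676 to 9803) in the 10 WT members with Cxcr5 only and 3685 CPM (3317 to 4083) in those with Ccr6 only. In cKO the same levels were 5346 and 4447 CPM. These classes share libraries and differ in number, so their order is a description.

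Few members carried Cd4, the coreceptor found on many LTi cells of mice. Cd4 UMIs were in 11 of 59 WT and 14 of 131 cKO members. Those with Cd4 had H2-Aa at 973 and 1065 CPM, and those without at 1773 and 1578 CPM. Il22 UMIs were in 48 WT and 112 cKO members. Members with no Il22 UMI, 11 WT and 19 cKO, had Cd74 at 8103 (7060.5 to 9256) and 7423 CPM (6734 to 8163), against 4396 and 4562 CPM in those with Il22. Their median depths were 1548 and 2711 UMIs, against 3869.5 and 2989, and the part of depth in this difference was not tested.

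Members and Cd74-low cells were then compared over all genes. By the size rule, in WT, 39 of 6749 genes were higher (0.578%) and 39 lower (0.578%) in members. In cKO, 60 of 6169 genes were higher (0.973%) and 43 lower (0.697%). The contrast is the one the rule made, so nothing is read from these shares. In all, 15 genes were higher in both libraries (38.5% of the WT list and 25% of the cKO list), and 8 were lower in both (20.5% and 18.6%). The 15 were H2-Aa, H2-Ab1, H2-Eb1, Cd83, Cd40, Spi1, Napsa, Cst8, Bmp2, Blk, Ncf1, Tyrobp, Tnfsf8, Tgm3 and Piwil4, and the 8 were Arg1, Cpe, Ddc, Gimap4, Ikzf3, Palld, Ramp3 and Tcrg-C4. No gene was past the rule in opposite directions.

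Cd83 stood out for its level. CD83 is a membrane protein of mature dendritic cells that keeps class II molecules on the surface. Cd83 (chromosome 13, 43784775 to 43803132, + strand, GRCm38) was at 4976 CPM (4677 to 5289) in WT members and 1802 CPM (1637 to 1978) in WT Cd74-low cells, which gives 1.47 (1.30 to 1.63) as log2 ratio. In cKO the levels were 1139.8 (1039 to 1248) and 430.5 CPM (382 to 483), with 1.40 (1.19 to 1.62) as log2 ratio. Cd83 was thus higher in members by about the same ratio in both libraries, at levels that differed between them. It had a UMI in 54 of 59 WT and 88 of 131 cKO members.

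Genes known from B cells and myeloid cells were among those higher in members. Spi1 encodes PU.1, a factor of myeloid and B cell development. WT members held 29 Spi1 UMIs in 6 cells, 18 of them in 1 cell, and WT Cd74-low cells held 1. In cKO, 12 UMIs lay in 10 members and none in Cd74-low cells. The 6 WT members with Spi1 had Cd74 at 13914 CPM and the other 53 at 3861 CPM. In cKO these levels were 5554 and 4901 CPM, so Spi1 lay in members of high Cd74 mainly in WT. Blk, a SRC family kinase of B cells and some innate-like lymphocytes, was at 149 and 45.1 CPM in WT members and Cd74-low cells, and at 99.9 and 30.0 CPM in cKO. Ncf1, a subunit of the phagocyte NADPH oxidase, was at 91.6 and 20.5 CPM in WT, and at 39 and 3.0 CPM in cKO. Tyrobp, the signalling adaptor DAP12, was at 91.6 and 20.5 CPM in WT, and at 82.8 and 15 CPM in cKO. Each of these 4 genes was found in 6 to 30 members of a library. With Ccr6 alone as the receptor none of the 4 was past the size rule in WT, and Blk was not in cKO, while Spi1, Ncf1 and Tyrobp were. Ncf1 was not past it in WT without its highest cell, and with a stricter cell filter neither Ncf1 nor Tyrobp was in WT.

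Bmp2, Napsa and Cst8 were also among the genes higher in members in both libraries. Bmp2, a secreted ligand of the BMP family, was at 275 CPM in WT members (25 cells) and 82.1 CPM in Cd74-low cells, log2 ratio 1.74 (0.99 to 2.56). In cKO it was at 195 CPM (47 cells) and 67.5 CPM, log2 ratio 1.53 (0.98 to 2.09). Napsa, an aspartic protease, was at 96.4 and 8.21 CPM in WT, and at 92.5 and 21 CPM in cKO. Cst8, of the cystatin family, had 9 UMIs in 3 WT members and 28 in 15 cKO members, against 0 and 3 UMIs in Cd74-low cells. Bmp2, Napsa and Cst8 were thus found in more than a few cells of the cKO library, and Cst8 in WT rests on 3 cells.

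Of the 8 genes lower in members in both libraries, Ramp3 had the highest level. Ramp3, which pairs with the calcitonin receptor-like receptor for adrenomedullin and CGRP, was at 395 and 1063 CPM in WT members and Cd74-low cells (log2 ratio -1.43 (-1.80 to -1.06)). In cKO it was at 938 and 1729 CPM (-0.88 (-1.05 to -0.72)). Arg1, the arginase of activated macrophages and of some ILCs, was at 43.4 and 222 CPM in WT, and at 65.8 and 172 CPM in cKO. Both genes were lower by the size rule in both libraries. Ikzf3, the Ikaros family factor Aiolos, was at 14.5 and 78 CPM in WT, and at 63.3 and 187 CPM in cKO. Gimap4, a GTPase of lymphocyte survival, was at 19.3 and 135 CPM in WT, and at 46.3 and 189 CPM in cKO. Palld encodes an actin-binding protein and was at 9.64 and 78 CPM in WT, and at 46.3 and 184 CPM in cKO. Ddc (an aromatic amino acid decarboxylase), Cpe (a prohormone carboxypeptidase) and Tcrg-C4 (a constant gene of the T cell receptor gamma chain) had 1, 0 and 0 UMIs in WT members and 8, 1 and 11 in cKO members. Their Cd74-low counts were 20, 9 and 11 in WT and 43, 22 and 58 in cKO. Hilpda, a lipid droplet protein induced by low oxygen, was past the rule in WT (882 and 1892 CPM) and not in cKO (1059 and 1501 CPM), and the difference between these ratios was not tested. Auts2 and Adam12 (the latter a metalloprotease) had no UMI in WT members and 13 each in WT Cd74-low cells. In cKO they had 3 and 4 UMIs in members and 24 and 25 in Cd74-low cells, and neither was past the rule. Without its highest cell Auts2 was not past it in WT. Taf4b, a subunit of a general transcription factor, had 5 and 20 UMIs in WT (-1.77 (-3.54 to -0.31)), not past the rule, and 8 and 46 in cKO (-1.82 (-3.12 to -0.73)), past it.

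**Figure D3:**
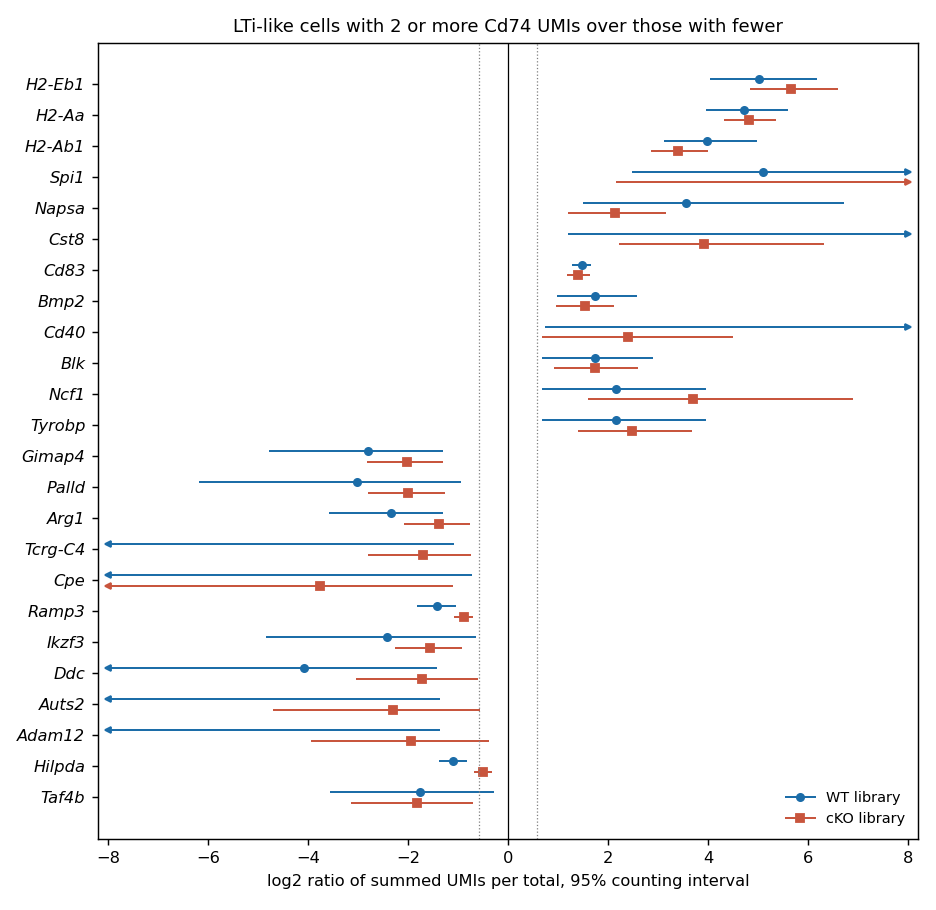
Log2 ratio of members over Cd74-low LTi-like cells (x axis) with 95% counting intervals for the 24 genes named by the rule (y axis), circles for WT and squares for cKO. Dotted lines mark 1.5-fold, arrows mark intervals that run past the axis, and a gene with a group at 0 UMIs has no point; each gene lies on the same side in both libraries, which the naming rule requires.

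LTi-type genes were compared between members and Cd74-low cells in the same way. Of the 22 LTi-type genes, 19 had 20 CPM or more, and in WT none was past the size rule (median log2 ratio 0.092, against -0.10 over all genes). In cKO, Ccr7 was higher and Slc6a20a lower (median 0.23 against -0.011). Of all genes, 0.578% were higher and 0.578% lower in WT members, and 0.973% and 0.697% in cKO members. Few calls among 19 genes are thus no trait of the LTi-type genes. Tnfsf11 (RANKL, a ligand that LTi cells give to stroma) was at 1437 and 1096 CPM in WT members and Cd74-low cells, and at 1039.9 and 991 CPM in cKO. Ltb, which encodes lymphotoxin beta, was at 1046 and 1145 CPM in WT, and at 994 and 843 CPM in cKO. Both genes were present in both sets at levels within 1.5-fold of each other in each library. Kit, the stem cell factor receptor, was at 439 and 507 CPM in members, and Il7r, the receptor for the ILC survival cytokine IL-7, at 2044 and 1249 CPM.

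Ccr7 was the LTi-type gene higher in cKO members. CCR7 guides cells from tissue to lymph nodes. Ccr7 was at 343 CPM (141 UMIs in 27 cells, 33 in the highest) in cKO members and 70.5 CPM in cKO Cd74-low cells, log2 ratio 2.28 (1.80 to 2.79). In WT it was at 159 and 119 CPM, log2 ratio 0.42 (-0.35 to 1.19), and 20 of the 29 WT Cd74-low UMIs lay in 1 cell. Among 18 genes known from other antigen-presenting cells related to ILC3s, 2 of 6 with 20 CPM or more were higher in WT members (Spi1 and Cd40) and 4 of 8 in cKO members (Ccr7, Spi1, Siglecg and Cd40), where 0.578% and 0.973% of all genes were. In WT, Spi1 was not past the rule after thinning or with Ccr6 alone as the receptor. Siglecg, an inhibitory receptor of B cells and other leukocytes, had 12 UMIs in 8 cKO members and none in cKO Cd74-low cells.

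Of 14 ILC3 effector genes with 20 CPM or more, none was higher in members and 2 were lower in each library, Il17a and Areg in WT and Il17f and Csf2 in cKO. In all, 0.578% of all genes were lower in WT and 0.697% in cKO. Il22, the signature cytokine gene of ILC3s, was at 9416 and 10475 CPM in members, although the rule limits it, and reads of its near copy Iltifb may be split with it. Il17f was at 62.7 and 131 CPM in WT members and Cd74-low cells, and at 92.5 and 204 CPM in cKO, where it was past the rule in 4 of 13 alternatives. Csf2, which encodes the myeloid growth factor GM-CSF, was at 265 and 209 CPM in WT (0.34 (-0.23 to 0.92)), and at 75.5 and 228 CPM in cKO (-1.59 (-2.20 to -1.03)). The lower Csf2 of cKO members was lost when members were taken by Ccr6 only (log2 ratio -0.28), and in WT Csf2 was then higher in members and past the rule (log2 ratio 1.91). Il17a was past the rule in WT through 1 Cd74-low cell that held all 24 UMIs. Areg was not past it in WT without its highest cell or with a stricter cell filter.

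Between the libraries, the summed class II RNA of members differed by less than 1.5-fold. Members of both libraries were picked by the same Cd74 count, and the H2 genes were highest where that count was highest. The rule thus conditions this comparison, which does not speak for LTi-like cells as a whole. Cd74, which the rule thresholds, was at 4874 CPM in WT and 4961 CPM in cKO members. The 9 H2 class II genes summed to 3717 CPM in WT (771 UMIs) and 3281 CPM in cKO (1347 UMIs), a log2 ratio of cKO over WT of -0.18 (-0.31 to -0.051). The interval leaves out 0 but is far inside 1.5-fold, and it covers counting error only. By gene, the log2 ratio was -0.084 (-0.28 to 0.11) for H2-Aa and -0.27 (-0.51 to -0.038) for H2-Eb1. H2-Ab1 had the lowest ratio of the 3 chains, -0.56 (-0.86 to -0.25). H2-DMa was at 1.07 (-0.16 to 2.50) and H2-Oa at 0.32 (-0.48 to 1.17). The intervals of H2-DMa, H2-Oa and H2-Aa include 0. Those of H2-DMa and H2-Oa run beyond 1.5-fold, so a difference in these 2 genes was not detectable at this depth. That of H2-Aa lies wholly within 1.5-fold. H2-DMb1, with 1 UMI in WT and 16 in cKO members, was at 3.01 (0.33 to 8.4) and not past the size rule, but it was past it without the highest cell, which removes the WT UMI.

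Across all genes, 58 of 6317 were higher in cKO than in WT members (0.918%) and 73 were lower (1.16%). In Cd74-low cells, 57 of 6710 were higher (0.849%) and 97 lower (1.45%). Both comparisons use cells of the same 2 libraries. Of the class II list, 11 genes had 20 CPM or more in members, none was higher in cKO and Cd83 was lower (median log2 ratio 0.32, against 0.015 over all genes). No LTi-type gene of 19 and no ILC transcription factor of 21 was past the size rule in members (medians -0.28 and 0.21). Among the LTi-type genes, Ccr7 was at 1.11 (0.55 to 1.70) and was past the rule in 4 of 12 alternatives: a Cd74 threshold of 3, a stricter cell filter, Ccr6 alone as the receptor (2.19) and removal of cells with B cell or ILC2 markers. Il7r and the transcription factor Ikzf3 passed it when the Il22 limit was left out.

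Cd83 was lower in cKO members by a log2 ratio of -2.13 (-2.29 to -1.97), and in Cd74-low cells by -2.07 (-2.28 to -1.85). It was lower at every Cd74 count, from 5388 CPM in WT and 429 in cKO at 2 Cd74 UMIs to 4813 and 1959 at 25 or more. In these cells of highest class II RNA, H2-Aa was at 4097 and 4309 CPM.

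Immediate early and heat-shock genes, which cells switch on within minutes of stimulation, handling or warming, were counted next. Of 29 such genes with 20 CPM or more, 14 were lower in cKO members and 1, Ier3, was higher, where 1.16% of all genes were lower and 0.918% higher. The other 14 were not past the size rule (median log2 ratio -0.69 over the list, against 0.015 over all genes). In Cd74-low cells, 14 of 28 were lower and none higher (median -0.84). Jun, an AP-1 subunit and a partner of BATF, was at 5159 CPM (4854 to 5478) in WT and 1269 CPM (1162 to 1383) in cKO members, log2 ratio -2.02 (-2.18 to -1.87). Fos, another AP-1 subunit, was at 3934 and 1439 CPM (-1.45 (-1.61 to -1.30)), and Junb at 17415 and 10465 CPM (-0.73 (-0.80 to -0.67)). The stress-induced factor Atf3 was at 2083 and 811 CPM. Together with Jun, Fos and Junb it made 4 of 17 BATF, AP-1 and IRF family genes lower in cKO members, and none was higher, against 1.16% and 0.918% of all genes. Hspa1a, an inducible HSP70 chaperone, was at 468 and 56 CPM (-3.06 (-3.79 to -2.39)). Its near copy Hspa1b, with which reads may be split, was at 145 and 26.8 CPM. Zfp36, which speeds decay of cytokine mRNAs, was at 2483 and 986 CPM (-1.33 (-1.52 to -1.14)), and Tnfaip3 (A20, an inhibitor of NF-kB) at 2743 and 1452 CPM (-0.92 (-1.09 to -0.75)). Rhob, an early-response GTPase, was at 646 and 139 CPM (-2.22 (-2.69 to -1.76)). The part of sample handling in these differences was not tested, and with 1 library each it cannot be told apart from genotype.

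Several genes lower in cKO members had few UMIs. Cdk5rap1, which modifies mitochondrial transfer RNA, had 9 UMIs in 7 WT members and none in cKO members, at least 5.94-fold lower. Ocrl (an inositol phosphatase), Gstcd and Zkscan1 (a zinc finger factor) had 7 UMIs each in WT members and none in cKO members, at least 4.62-fold lower each. Hist1h4i, a histone H4 gene, had 13 UMIs in WT and 2 in cKO members, a log2 ratio of -3.69 (-6.88 to -1.54), and its RNA may be shared with other H4 genes. Arhgap27, a GTPase activator, had 10 UMIs and 1 UMI (-4.31 (-9.75 to -1.49)). All 8 UMIs of C4b, a complement gene, lay in 1 WT member. Csf2 was at 265 CPM in WT (55 UMIs in 8 cells) and 75.5 CPM in cKO members (31 UMIs in 13 cells), log2 ratio -1.81 (-2.50 to -1.15). Spi1 was lower in cKO members (-2.26 (-3.36 to -1.24)), but without the highest cell the ratio was -1.27 and no longer past the rule, and with members taken by Ccr6 only it was 0.51. The direction of Spi1 between libraries therefore rests on a few cells. Klrk1, the activating receptor NKG2D, was at 121 and 31.7 CPM (-1.93 (-3.02 to -0.91)).

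Genes higher in cKO members were led by Ly6a. Ly6a encodes SCA-1, an interferon-inducible surface protein. It was at 14.5 CPM in WT members (3 UMIs) and 533 CPM in cKO members (219 UMIs in 56 of 131 cells), log2 ratio 5.20 (3.64 to 7.49). In Cd74-low cells the ratio was 3.60 (2.60 to 4.82). Pdcd1, which encodes the checkpoint receptor PD-1, was at 91.6 CPM (55.2 to 143) in WT and 487 CPM (422 to 559) in cKO members, log2 ratio 2.41 (1.73 to 3.17). In Cd74-low cells Pdcd1 was at 295 and 384 CPM, log2 ratio 0.38 (-0.0044 to 0.78), and was not past the rule. WT members were thus the low group for Pdcd1, and cKO members, WT and cKO Cd74-low cells were all above them.

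Plac8, a cysteine-rich protein of many leukocytes, was at 53 CPM in WT and 453 CPM in cKO members (3.09 (2.22 to 4.12)), and at 28.7 and 145 CPM in Cd74-low cells. Ndrg1, a stress-responsive gene, was at 9.64 and 173 CPM (4.16 (2.26 to 7.24)) in members. Serpine2, a secreted protease inhibitor, was at 33.7 and 256 CPM (2.92 (1.83 to 4.27)). Gclm, the modifier subunit of the enzyme that starts glutathione synthesis, was at 24.1 and 205 CPM (3.09 (1.81 to 4.74)) and was found in 56 of 131 cKO members. Ly6a, Ndrg1, Plac8, Serpine2 and Gclm were each higher by the size rule in cKO Cd74-low cells too. Ramp3, which was lower in members than in Cd74-low cells, was higher in cKO than in WT members (1.25 (0.90 to 1.61)).

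Other leading genes rested on few cells. Cxcl9, a chemokine induced by interferon gamma, had no UMI in WT members and 58 in 4 cKO members, 32 of them in 1 cell, at least 9.77-fold higher. Areg, the epidermal growth factor receptor ligand amphiregulin, had none in WT members and 35 in 6 cKO members, at least 5.89-fold higher. Ier3, an early-response gene, had 1 and 40 UMIs, and 31 of the latter lay in 1 cell. Calca, which encodes the neuropeptide CGRP, had 27 UMIs in 6 cKO members, and Hs3st1, a heparan sulfate sulfotransferase, had 40 in 4. Both are ILC2 markers, and 3 cKO members and no WT member carried 3 or more ILC2 markers. Without the 5 cKO members that held 3 or more ILC2 or B cell markers, 3 Calca UMIs and no Hs3st1 UMI were left, while Cxcl9 kept all 58 UMIs. Psme2b, a near copy of the proteasome activator gene Psme2 with which reads may be split, had 1 UMI in each of 24 cKO members and none in WT.

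**Figure D4:**
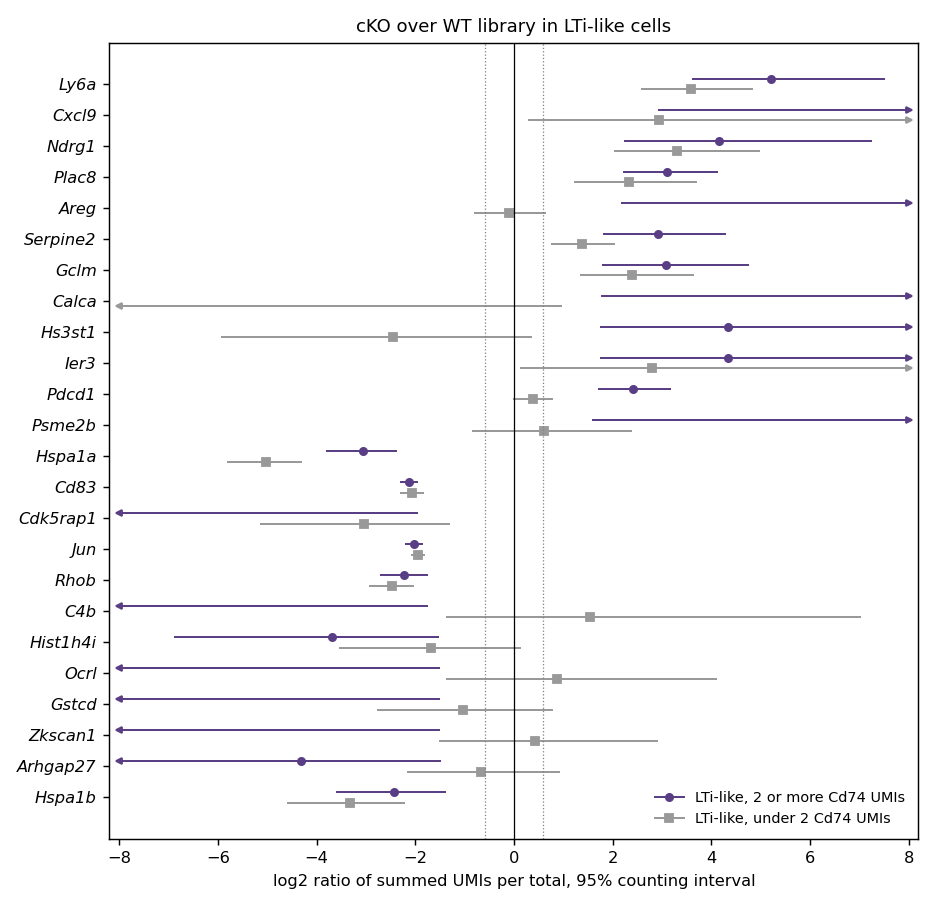
Log2 ratio of the cKO over the WT library (x axis) with 95% counting intervals for the 24 genes named by the rule (y axis), circles for members and squares for Cd74-low LTi-like cells of the same 2 libraries. Dotted lines mark 1.5-fold, arrows mark intervals past the axis, and a gene with a library at 0 UMIs has no point; Jun, Cd83 and Rhob lie at like ratios in both sets of cells.

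A few MHC class I and interferon response genes were higher in cKO members, and most were not past the size rule. Of 16 class I presentation genes with 20 CPM or more, H2-K1, H2-Q7 and Calr were higher in cKO members and none was lower (median log2 ratio 0.66), where 0.918% of all genes were higher and the median of all genes was 0.015. In Cd74-low cells, where 0.849% of all genes were higher, H2-Q7 alone of 17 was (median 0.45). H2-K1, a classical class I heavy chain, was at 2888 and 4844 CPM in WT and cKO members (0.75 (0.61 to 0.88)). H2-Q7, a Qa-2 class I gene, was at 516 and 1206 CPM (1.22 (0.92 to 1.54)), and reads of H2-Q genes may be split among near copies. B2m, the shared light chain of class I, was at 1639 and 2516 CPM (0.62 (0.44 to 0.80)) and was not past the rule. Of 19 interferon response genes, Igtp, a GTPase induced by interferon gamma, was higher (2.60 (0.94 to 4.94)) and none was lower (median 0.85). In Cd74-low cells 4 of 19 were higher (Isg15, Ifit1 and Irf7 among them) with a median of 0.87. Icam1, the adhesion ligand of LFA-1, was at 154 and 375 CPM in members (1.28 (0.72 to 1.88)), and 28 of its 154 cKO UMIs lay in 1 cell. H2-Q7 stayed past the rule in every alternative. After thinning H2-K1, Calr, Igtp and Icam1 were not past it. The same held for H2-K1 and Igtp with Ccr6 alone as the receptor, for Calr with a stricter cell filter and for Icam1 without its highest cell.

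Markers of other class II cells were counted in the members, since B cells and dendritic cells carry class II as well. In WT members, 8 of 11 B cell markers were at 0, among them the defining Cd79a, Ms4a1 and Igkc, and the summed level was 72.3 CPM against 41 in Cd74-low cells. In cKO members all 11 were found at a summed 158 CPM against 37.5. In cKO, 2 members carried 3 or more B cell markers, 1 of them 9, and these cells held all 18 Cd79a UMIs. Of 17 myeloid and dendritic cell markers, 15 were at 0 in WT and 10 in cKO members, Itgax, Flt3, Xcr1, Clec9a, Siglech and Csf1r among them in both. Their sums were 101 CPM in WT and 199.7 CPM in cKO, against 148 and 138 CPM in Cd74-low cells, and 1 cKO member carried 5 of them. ILC2 markers summed to 48.2 CPM in WT and 244 CPM in cKO members, against 65.7 and 76.5 CPM in Cd74-low cells. T cell markers summed to 111 and 168 CPM in members, against a higher 226 and 327 CPM in Cd74-low cells. In cKO, 10 Cd74-low cells and 2 members carried 3 or more T cell markers, and in WT 4 and 0. The part of such cells in the genes lower in members, Tcrg-C4 among them, was not tested. Epithelial markers summed to 0 in members of both libraries. Without the cells that held 3 or more B cell or ILC2 markers, an alternative chosen after the data were seen, the summed class II ratio of cKO over WT members was -0.26.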

How the data were processed

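The authors deposited 1 matrix of raw UMI counts per library, with genes in rows and barcodes in columns. Per the submitters' processing notes they used Cell Ranger with mm10, and software version 3.0.0 is named per the file headers. No label or header states how barcodes were called as cells. Both matrices list the same 31053 genes, and 30934 identifiers had a position in GENCODE M21 (GRCm38, the assembly that mm10 names).

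Counts were read in Python 3.11.15 with numpy 2.4.6, scipy 1.17.1 and pandas 2.3.3, and figures were drawn with matplotlib 3.10.9. Barcodes with 500 or more genes and under 10% mitochondrial UMIs were kept, 736 of 1153 in WT and 5730 of 6443 in cKO. Scrublet (scanpy 1.11.5) called 5 WT (0.679%) and 98 cKO barcodes (1.71%) as doublets, which stayed in and were removed as an alternative. The membership rule was applied to raw counts. The deposited libraries held 3138009 and 22004110 UMIs.

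UMIs were summed per library and group and divided by all UMIs of the group (CPM). Levels have exact Poisson intervals, shares exact Clopper-Pearson intervals (a count of 0 has a floor of 3 counts), and log2 ratios exact conditional binomial intervals, at 95%. The size rule asks for 20 CPM in 1 or both groups and an interval wholly beyond 1.5-fold; mitochondrial genes, Xist, Tsix and the 7 genes of the membership rule stay out of its counts. List medians use genes at that minimum, with a group at 0 set to 3 UMIs. The rule was tested on simulated counts with 200 changed genes. These counts took every UMI as independent, so the simulation says nothing on genes whose UMIs lie mostly in a few cells. Intervals cover counting error only.

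Named genes were, for members against Cd74-low cells, the 12 per direction with the farthest interval bound of the same sign in both libraries, and, for cKO against WT members, the 12 per direction with the farthest bound. Genes of mitochondria and of ribosomal proteins, and those with Gm or Rik names, were left out. The class II list, leading genes of other lists and a set of LTi, cytokine and costimulation genes were added. Tnfsf8, Tgm3 and Piwil4 were named after their values were seen. The members, gene lists and tests were chosen with earlier results of these data known. Some genes of the lists are not reported here. Promoters are from RefSeq (GRCm38.p6). In all, 11 planned and 3 added alternatives were run.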

Additional observations from a re-analysis of the deposited data

How the results depend on the processing

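No paired analysis was possible because there is 1 library per genotype, and no replicate was left out for the same reason. In all, 11 alternatives were planned, and 3 were chosen after the data were seen: leaving out the highest cell of each gene, removing cells with 3 or more B cell or ILC2 markers, and applying the rule after thinning.

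The log2 ratio of the summed class II genes of cKO over WT members lay between -0.29 and -0.10 under every alternative that gave a value. With all cells thinned to 1200 UMIs, 12 genes were higher and 20 lower in members than in Cd74-low cells in WT, 39 higher and 23 lower in cKO, and 22 were higher in cKO than in WT members. Fewer UMIs and fewer cells enter these counts by construction. With all deposited barcodes, 62 genes were lower in WT members. The members' share of LTi-like cells in cKO was 46.4% with Ccr6 only as the receptor (44.1% in WT), 30.2% with a Cd74 threshold of 3 UMIs and 27.5% when the rule was applied after thinning, which gave 27.7% in WT. The cause of these moves was not tested.

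Of 4703 values of single genes under alternatives, 4542 stayed within the counting interval of the reported value, 159 moved out of it and 2, of genes past the size rule, changed sign. Of 3445 values of genes not past the rule, 177 had the other sign. Past the rule, the sign changed for Hs3st1 in cKO over WT members after thinning (-0.21) and for Spi1 with Ccr6 only (0.51). Of 39 named genes past the size rule between cKO and WT members, 22 stayed past it in every alternative, 15 were lost after thinning and 5 without their highest cell. For members over Cd74-low cells, 7 of 26 in WT and 14 of 38 in cKO stayed. H2-Aa, H2-Ab1, H2-Eb1 and Cd83 were among these in both libraries, and Cd83, Ly6a, Pdcd1, Jun, Fos and Hspa1a among those between the libraries. Depth limits genes such as Ciita, Cd80, Cd86, H2-Ob and H2-Eb2, with few UMIs or none.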
